A study of Rattus norvegicus with 30 samples.

Results

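The neuregulins and epidermal growth factor (EGF) ligands and the ErbB receptors that bind them were followed in rat proximal sciatic nerve (SN) and dorsal root ganglia (DRG) over 14 d after nerve resection. The members were the ligand genes Nrg1, Nrg2, Areg, Btc, Ereg and Hbegf and the receptor genes Egfr, Erbb2, Erbb3 and Erbb4. They were found by their gene names in the scanner files and are 10 of 35287 genes named there. They have 14 of 41012 probes, with 3 probes for Nrg2, 2 each for Nrg1 and Egfr, and 1 for each other gene. The arrays are 30 single-colour arrays, 3 for each tissue at 0, 1, 4, 7 and 14 d. All animals were adult male Sprague-Dawley rats without a transgene, and the 0 d groups are the uninjured controls. In the others a piece of 1 cm was cut out of the left sciatic nerve, after which 0.5 cm of the nerve on the proximal side and the lumbar DRG were taken. Per the labels there were 30 rats in groups of 6, but which rats each array holds is not stated, so p-values measure only the spread between arrays, which may be in part technical.

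Neuregulins and EGF ligands are made as membrane proteins, many of which are cut loose by metalloproteases, and they act by pairing ErbB receptors on the receiving cell. EGFR binds EGF, amphiregulin and TGF-alpha, whereas ERBB3 and ERBB4 bind neuregulins. ERBB2 has no ligand of its own and serves as a partner, and ERBB3 depends on its partner for most of its kinase activity. In peripheral nerve, neuregulin-1 on axons acts through ERBB2 and ERBB3 on Schwann cells and sets survival, migration and the thickness of myelin.

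The 2 neuregulins have several probes each, and a gene that is spliced in many forms can read differently at each of them. Their 60-base probe sequences are therefore shown in the direction of the transcript. Positions are those of the array annotation in build rn4, and exon or UTR boundaries of that build were not used here. Both Nrg1 probes lie on the plus strand of chromosome 16. The 2034 probe (A_44_P477819), named for its first base in the annotated transcript, lies at chr16:64124972-64125031, and the 865 probe (A_44_P438143) at chr16:64093883-64093942. The Nrg2 probes lie on the minus strand of chromosome 18, the 2557 probe (A_44_P311455) at chr18:28650557-28650616, the 1470 probe (A_44_P372485) at chr18:28656991-28657050 and the 912 probe (A_44_P452588) at chr18:28827813-28827872. The 2557 probe of Nrg2 is 75% G and C, against 45 to 55% for the other 4.
Nrg1 probe 2034: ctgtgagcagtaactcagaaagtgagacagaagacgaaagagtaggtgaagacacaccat
Nrg1 probe 865: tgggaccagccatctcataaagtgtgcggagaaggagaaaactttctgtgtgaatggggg
Nrg2 probe 2557: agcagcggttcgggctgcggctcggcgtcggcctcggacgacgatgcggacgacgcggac
Nrg2 probe 1470: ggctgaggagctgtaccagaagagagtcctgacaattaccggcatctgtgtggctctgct
Nrg2 probe 912: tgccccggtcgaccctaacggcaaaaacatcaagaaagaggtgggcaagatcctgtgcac

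Values are normalized signals, the log2 intensity of a probe minus the 75th percentile of its array, so that 0 is that percentile and a step of 1 is a doubling. Levels of different probes are not compared with each other. To be tested in a tissue, a probe had to be well above background on each of the 3 arrays of some day, which held for 13 of the 14 probes in SN and 12 in DRG. Ereg was not well above background on any array and was not tested, and Erbb4 was not tested in DRG. A probe was called at an adjusted p under 0.05 and a change of more than 2-fold, and only called changes are described as a rise or a fall. Changes are given as log2 differences ± SE from the fit.

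The arrays of a group correlated at r = 0.985 to 0.997, and 26941 to 35573 probes were well above background on an array. The injury label was checked in DRG with Atf3, a transcription factor of injured neurons, which was 4.13 to 4.53 above 0 d on the 4 later days, and in SN with Ngfr, a receptor of denervated Schwann cells, which was 1.91 to 3.58 above. In SN, Atf3 had no call (-0.33 to 0.36), nor had Gap43 (-0.55 to 0.25), and Gal was called lower on 3 of the 4 days (-1.68 to -0.70). Schwann cell markers (7 of 7 well above background on all arrays) had a mean signal of 5.85 to 6.15 on the SN arrays at 0 d, 5.42 to 5.71 at 1 d and 4.72 to 5.23 from 4 d on. Macrophage markers (6) stood at -0.29 to -0.01 in SN at 0 d and at 0.68 to 2.14 later. The mean of 6 skeletal muscle markers was 3.59 to 7.63 in SN at 0 d, 3.72 to 5.08 at 1 d, -0.84 to 3.04 at 4 and 7 d and 3.21 to 4.91 at 14 d, and 1.47 to 4.56 in DRG, so that both dissections held muscle RNA. The mean of 4 adipocyte markers in SN was 2.45 to 3.70 at 0 d, 2.66 to 3.35 at 1 d and 1.69 to 2.48 from 4 d on. The 8 sensory neuron markers gave means of 5.33 to 5.67 in DRG. All 0 d arrays were scanned on a day of their own, so that within a tissue 0 d and scan day cannot be told apart. The same holds within SN for 14 d, whose 3 arrays were scanned on a day without other SN arrays. No slide held arrays of both 0 d and a later day, so within a tissue 0 d and slide cannot be told apart either. In SN the 1 d arrays lay on 1 slide without other SN arrays, as did those of 7 d. At 7 d, DRG replicate 1 shared a scan day with the SN arrays and DRG replicates 2 and 3 did not. The changes of the tissues were therefore not tested against each other at 7 d. All comparisons with 0 d in a tissue share its 3 arrays of 0 d.

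In SN, Nrg1 rose steeply at 1 d and was still above 0 d at 14 d. At the 2034 probe the normalized signal was -4.94, -4.33 and -4.64 on the 0 d arrays, 0.42, 0.53 and 0.84 after 1 d, -1.54, -1.16 and -1.16 after 4 d, -1.90, -1.85 and -1.57 after 7 d and -2.25, -2.74 and -2.76 after 14 d. No array of a later day reached down to the 0 d arrays, and the 5 groups did not overlap each other. The order ran from 1 d, the highest, through 4, 7 and 14 d to 0 d. The rise was 5.23 ± 0.19 at 1 d (37.6-fold, adjusted p = 5.52e-09), 3.35 at 4 d (10.2-fold), 2.86 at 7 d (7.28-fold) and 2.05 at 14 d (4.15-fold, adjusted p = 3.75e-06). The 865 probe rose on the same days, by 4.54 ± 0.14, 2.48, 2.15 and 1.37, from -5.69 to -5.41 at 0 d to -1.10 to -0.77 at 1 d, and at this probe the 4 and 7 d arrays overlapped. Between 1 and 14 d the fall was -3.18 ± 0.19 at the 2034 probe (adjusted p = 2.97e-07) and -3.17 ± 0.14 at the 865 probe. At the 865 probe the change at 14 d was below 2-fold after quantile normalization (0.83) and in the authors' values (0.76), and with the background corrected by normexp and the 75th percentile its calls at 4, 7 and 14 d were lost (1.33, 0.93 and 1.1, adjusted p from 0.0514 to 0.192). In bulk tissue, fewer cells of a type and less RNA per cell cannot be told apart, and the part of the macrophage and Schwann cell markers in this result was not tested.

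In DRG, where the cell bodies of sensory axons lie, Nrg1 was high at 0 d and read lower on later days, though by less than 2-fold here. The 2034 probe read 2.31, 2.33 and 2.39 at 0 d, 2.15, 2.17 and 2.0 after 1 d, 1.47, 1.42 and 1.24 after 4 d, 1.78, 1.75 and 1.67 after 7 d and 1.55, 1.70 and 1.61 after 14 d. All later arrays lay below those of 0 d, and the 7 and 14 d arrays overlapped. The difference from 0 d was -0.23 ± 0.08 at 1 d (adjusted p = 0.0683), -0.96 at 4 d (adjusted p = 8.99e-06), -0.61 at 7 d and -0.72 at 14 d, none of them past 2-fold. The 4 d value was -1.01 and called without DRG 4 d replicate 1, and with normexp it was -1.08 (75th percentile) and -1.06 (quantile), both called. The 865 probe gave -0.13, -0.74, -0.69 and -0.77 for these days. At 0 d the level in SN was below that in DRG by -6.98 ± 0.15 at the 2034 probe (126-fold, adjusted p = 3.37e-21) and by -5.89 ± 0.11 at the 865 probe (59.4-fold). Even at 1 d the highest SN array, 0.84 at the 2034 probe, lay below the lowest DRG array of any day, 1.24.

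**Figure D1:**
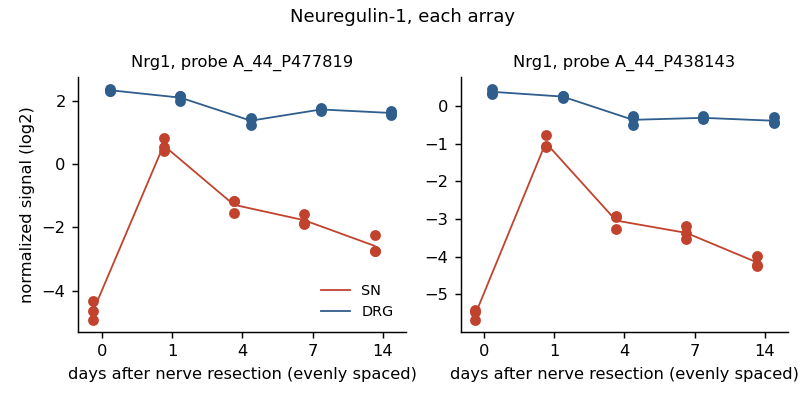
Normalized signal (log2, relative to the 75th percentile of the array) of the 2 Nrg1 probes by day after nerve resection, with days evenly spaced. Points are arrays (3 per group, SN red, DRG blue, filled where well above background) and lines join group means. At the 2034 probe the SN arrays go from -4.94 to -4.33 at 0 d to 0.42 to 0.84 at 1 d, and the DRG arrays stay between 1.24 and 2.39.

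The 3 probes of Nrg2, a second neuregulin that also binds ERBB3 and ERBB4, did not move together. The 2557 probe stayed within 0.33 of 0 d in SN, with 0 d arrays at -2.64, -2.27 and -2.36 and 7 d arrays at -2.07, -2.06 and -2.15, and had no call. The 1470 probe was called on all 4 days in SN, at 1.36 ± 0.29 (adjusted p = 0.00143), 1.18 (0.00352), 1.61 (0.000409) and 1.16 (0.00455). Its signal was -5.71, -6.45 and -6.06 at 0 d, with replicate 2 not well above background, and -5.18, -4.45 and -4.52 after 1 d, -5.29, -4.47 and -4.91 after 4 d, -4.34, -4.58 and -4.47 after 7 d and -4.97, -5.37 and -4.40 after 14 d. The later arrays all lay above those of 0 d, by little at their lowest. These calls rest on a dim probe: after quantile normalization the changes were below 2-fold on all 4 days (0.56 to 0.99), and in the authors' values at 1, 4 and 14 d (0.57 to 0.65). Without SN 0 d replicate 2 the 4 d change was 0.99 and the 14 d change 0.97. It was 0.97 at 4 d without SN 4 d replicate 2 and 0.91 at 14 d without SN 14 d replicate 3. At 1 and 4 d the adjusted p was 0.0647 and 0.0552 after quantile normalization, and 0.0637 and 0.0541 in the authors' values. With normexp and the 75th percentile these 2 changes were 0.20 and 0.47 (adjusted p = 0.915 and 0.657). With normexp and quantile both were 0.18 (adjusted p = 0.176 and 0.172). The 912 probe was not well above background at 0 d (-7.26 to -6.42) and had no call, with 0.91 ± 0.20 at 1 d, a value that was -0.15 to -0.02 with normexp, after quantile normalization and in the authors' values, with no call, and was 1.12 and called without SN 0 d replicate 2. In DRG the 1470 probe read -2.79 to -2.67 at 0 d and -3.62 to -2.90 later, with differences of -0.61 at 4 d (adjusted p = 0.00454) and -0.23 to -0.47 on the other days, and the 2557 probe 0.03 to 0.40, none called. The 912 probe had DRG group means of -5.82 at 0 d and -6.11 to -5.95 later, with no call. Its SN group means were -6.54, -6.26 and -6.48 at 4, 7 and 14 d. At 0 d the SN level was below that of DRG at all 3 probes, by -1.20 ± 0.10 (2557), -3.35 ± 0.23 (1470) and -1.02 ± 0.18 (912). At the 912 probe 0 of 3 SN arrays and 1 of 3 DRG arrays of 0 d were well above background, the difference was 0.15 with normexp and the 75th percentile and -0.78 without a call in the authors' values (adjusted p = 0.211), and no fold is given.

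Among the EGF-type ligands, Areg, which codes for amphiregulin, a ligand of EGFR, was the only member called on any day against 0 d in DRG, and it was called on all days in SN. In DRG it read -5.07, -5.00 and -5.14 at 0 d (replicate 2 not well above background), -2.50, -2.47 and -2.59 after 1 d, -4.56, -3.82 and -4.02 after 4 d, -4.32, -4.25 and -4.37 after 7 d and -4.11, -3.46 and -4.33 after 14 d. The 1 d arrays stood apart from all others of this tissue. The rise was 2.55 ± 0.21 at 1 d (5.85-fold, adjusted p = 9.31e-06). It was 1.1 at 14 d (2.15-fold, adjusted p = 0.00156), a call that was lost after quantile normalization, in the authors' values and without DRG 14 d replicate 2 (0.85). No member probe was called in DRG at 14 d with normexp and quantile, with the adjusted t-test of the methods or with a stricter filter. Values of 0.94 at 4 d and 0.75 at 7 d were below 2-fold, though without DRG 4 d replicate 1 the former was 1.15 and was called. From 1 to 14 d it fell by 1.44 ± 0.21 (adjusted p = 0.000699). In SN Areg was not well above background at 0 d (-8.61, -8.43 and -8.54) and read -3.92, -3.81 and -4.01 after 1 d, -4.88, -4.52 and -4.85 after 4 d, -5.54, -5.72 and -5.45 after 7 d and -5.99, -6.62 and -5.85 after 14 d. The 1 d arrays were again the highest and the groups of later days followed in order. Since 0 d gives only a bound, taken as the lowest signal among probes well above background on those arrays, Areg was at least 5.62-fold higher after 1 d, 3.15-fold after 4 d, 1.78-fold after 7 d and 1.19-fold after 14 d (adjusted p from 6.64e-09 to 6.23e-07). With normexp and the 75th percentile its SN calls were lost on all 4 days (0.36 to 1.11, adjusted p from 0.195 to 0.857). With normexp and quantile Areg changed by 0.84 at 4 d and 0.51 at 7 d, below 2-fold. From 1 to 14 d it fell by 2.24 ± 0.17 in SN (4.72-fold), a value that was 0.03 with normexp and the 75th percentile and -0.77, not called, with normexp and quantile.

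The promoter of Areg is shown because Areg was the member called in both tissues. It is the RefSeq sequence in build GRCr8, 250 bases before the start, on the minus strand. Capitals mark a match to the cyclic AMP response element TGACGTCA, whose first base lies 91 bases before the start. Of the 10 members 7 have a promoter in that table (Nrg1, Erbb3 and Ereg do not), and the letters are in 1 of the 7 and in 1.59% of 33469 promoters, searched on both strands. The AP-1 letters TGANTCA are in 0 of 7 and in 6.34% of all. A match is not a measured binding site.
Areg promoter: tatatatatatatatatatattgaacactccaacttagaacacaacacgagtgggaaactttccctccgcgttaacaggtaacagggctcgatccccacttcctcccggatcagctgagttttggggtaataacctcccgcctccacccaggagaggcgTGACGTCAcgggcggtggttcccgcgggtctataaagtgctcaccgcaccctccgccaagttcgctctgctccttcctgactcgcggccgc

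Btc, which codes for betacellulin, a ligand of both EGFR and ERBB4, rose in SN by 1 d and stayed up. Its signal was -6.69, -5.80 and -6.65 at 0 d, where only replicate 2 was well above background, and -4.42, -4.27 and -3.94 after 1 d, -4.02, -3.90 and -4.26 after 4 d, -4.27, -4.31 and -4.18 after 7 d and -4.51, -4.06 and -4.14 after 14 d. The later groups overlapped each other and none overlapped 0 d. The rise was 2.17 ± 0.22, 2.32, 2.12 and 2.14 at 1, 4, 7 and 14 d (4.36-fold to 4.99-fold, adjusted p from 2.81e-06 to 7.92e-06), and the difference between 14 and 1 d was -0.03 ± 0.22. With normexp and the 75th percentile these calls were lost as well (0.61 to 1.31, adjusted p from 0.0686 to 0.493). With normexp and quantile the changes were 0.60, 0.77 and 0.62 at 1, 4 and 7 d, below 2-fold. Areg and Nrg1 fell from 1 to 14 d. In DRG Btc was near background, at -7.21, -6.99 and -5.92 at 0 d and -7.76 to -5.73 later, and was not called against 0 d (0.68 ± 0.38 at 14 d, and 1.07 with a call without DRG 0 d replicate 3). After quantile normalization it was called lower at 1 d (-1.15, adjusted p = 0.0496). Its 14 d arrays were 1.18 ± 0.38 above those of 1 d (adjusted p = 0.0448), a call lost after quantile normalization, in the authors' values, with the scan day as a block (0.22), and without 14 d replicate 2 or 3 or 1 d replicate 1 or 3 (0.90 to 1.20). Ereg, the gene of epiregulin, lies beside Areg and Btc on chromosome 14 in rn4 (probes at chr14:18521343-18522341, chr14:18466438-18466497 and chr14:18233593-18233652). Unlike them it was not well above background on any of the 30 arrays, which gives no fold.

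Hbegf, the gene of heparin-binding EGF-like growth factor, had a signal well above background throughout and no call against 0 d. In SN it read 1.81, 1.51 and 1.84 at 0 d, 2.27, 2.43 and 2.25 after 1 d, 1.98, 1.84 and 1.72 after 4 d, 1.55, 1.38 and 1.62 after 7 d and 1.47, 1.57 and 1.25 after 14 d. The 1 d arrays lay above all others. The difference from 0 d was 0.59 ± 0.12 at 1 d (adjusted p = 0.000909), below 2-fold, and 0.12, -0.20 and -0.29 later. The 14 d level was 0.89 below that of 1 d. In DRG its values were 0.44 to 0.71 at 0 d and 0.13 to 0.51 afterwards, and at 0 d SN was above DRG by 1.17 ± 0.11 (2.25-fold, adjusted p = 2.05e-09).

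**Figure D2:**
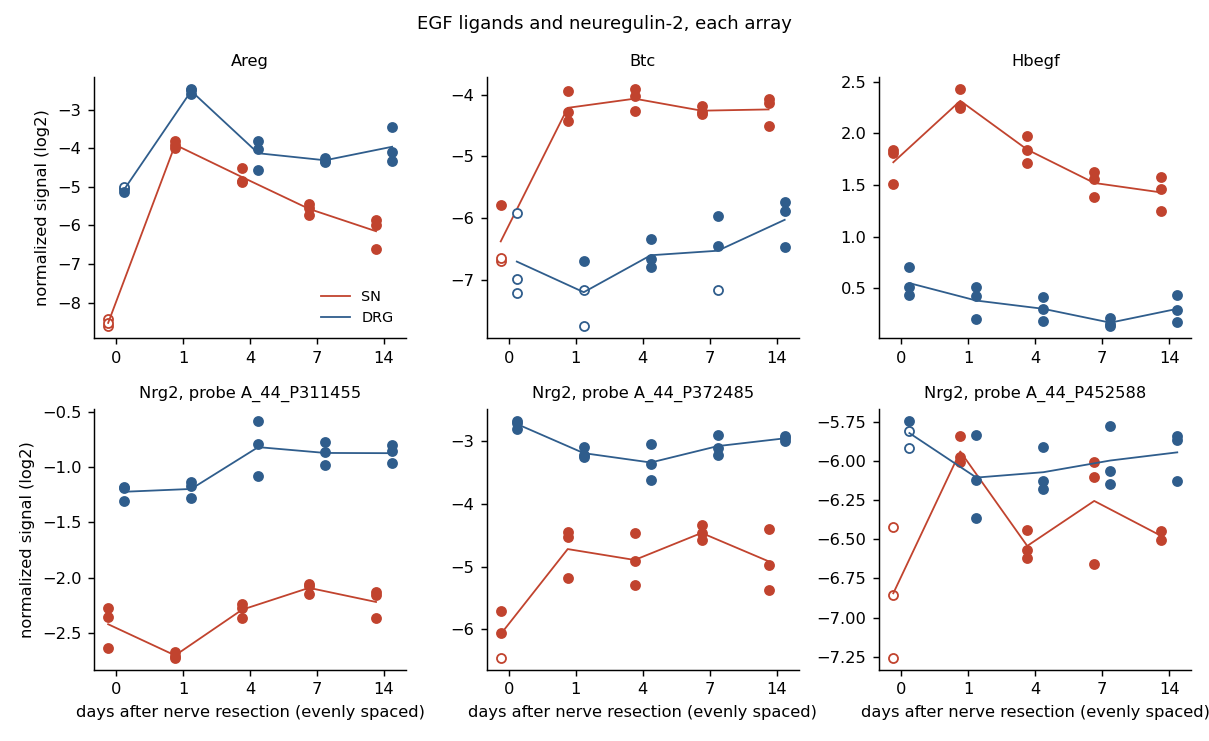
Normalized signal (log2, relative to the 75th percentile of the array) of Areg, Btc, Hbegf and the Nrg2 probes by day, days evenly spaced. Points are arrays (SN red, DRG blue, open where not well above background) and lines join group means. Areg has its highest arrays at 1 d in both tissues (-4.01 to -3.81 in SN, -2.59 to -2.47 in DRG). Ereg is not drawn.

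Of the receptors, Erbb4 was the only one called against 0 d, and in SN. ERBB4 binds neuregulins and betacellulin. Its signal was -5.42, -5.54 and -5.43 at 0 d, -5.71, -5.66 and -5.51 after 1 d and -6.76, -6.76 and -7.57 after 4 d, the last not well above background. At 7 d it read -6.90, -7.16 and -7.18 and at 14 d -7.33, -7.51 and -6.96, with no array well above background. The 0 and 1 d arrays overlapped, and all arrays from 4 d on lay below them. The difference was -0.16 ± 0.20 at 1 d (adjusted p = 0.493). Erbb4 fell by 1.57 ± 0.20 at 4 d (adjusted p = 3.01e-05) and was at least 2.78-fold lower at 7 d (adjusted p = 2.38e-05) and at least 2.62-fold lower at 14 d (adjusted p = 1.45e-05). With normexp and the 75th percentile the fitted change at 14 d turned from -1.80 to 0.38 and the 4 and 7 d calls were lost (-0.15 and -0.55). With normexp and quantile it was -0.50, -0.51 and -0.54 on these days, lower but below 2-fold. The skeletal muscle markers, 6 of 6 called lower at 4 and at 7 d and 0 of 6 at 14 d, were lower with Erbb4 at 4 and 7 d but not called at 14 d. Of the 4 adipocyte markers 0, 3, 2 and 3 were called lower on the 4 days. The part of both was not tested. In DRG the signal was -6.93 to -6.74 at 0 d with 1 array well above background, and -8.20 to -6.81 afterwards.

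Erbb2 was close to the 2-fold threshold in SN. It read -0.35, -0.20 and -0.13 at 0 d, 0.62, 0.90 and 0.75 after 1 d, 0.42, 0.71 and 0.56 after 4 d, 0.61, 0.71 and 0.92 after 7 d and 0.26, 0.13 and 0.15 after 14 d. All later arrays lay above those of 0 d. The differences were 0.98 ± 0.11 at 1 d (adjusted p = 1.34e-05), 0.79 at 4 d, 0.97 at 7 d (adjusted p = 1.07e-05) and 0.41 at 14 d (adjusted p = 0.007). None was called here, but with the percentile taken over detected probes those of 1 and 7 d were both 1.04 and called. Leaving out 1 array also took these 2 past 2-fold: without SN 0 d replicate 3 the values were 1.03 at 1 d and 1.02 at 7 d, without SN 1 d replicate 1 the former was 1.05, and without SN 7 d replicate 1 the latter was 1.04. In DRG the 0 d arrays disagreed, with replicate 1 at -0.26 against 0.69 and 0.76, and that array shares its slide with SN arrays. The DRG differences were 0.26 ± 0.26 after 1 d, -0.61 after 4 d, -0.26 after 7 d and -0.65 after 14 d, none called, and -0.07, -0.94, -0.59 and -0.98 without that array.

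Erbb3, the neuregulin receptor that Schwann cells use with ERBB2, moved by less than 2-fold on every day. In SN it read -3.64, -3.38 and -3.21 at 0 d, -3.85, -3.80 and -3.92 after 1 d, -3.68, -3.84 and -3.84 after 4 d, -3.36, -3.62 and -3.37 after 7 d and -3.27, -3.10 and -3.27 after 14 d. The 1 and 4 d arrays lay below those of 0 d, by -0.45 ± 0.11 (adjusted p = 0.00442) and -0.38 (adjusted p = 0.0121), and the 14 d level was 0.64 above that of 1 d. Schwann cell markers had a lower mean on the SN arrays from 1 d on, and their part was not tested. In DRG the values ran from -4.59 to -3.79 except for 1 d replicate 1, which read -2.65 beside -4.31 and -4.28. With that array the 1 d difference was 0.51 ± 0.36, and without it -0.03.

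Egfr, the receptor of EGF and amphiregulin, has a probe at base 3997 (A_44_P346408) and a second at base 3386 (A_44_P194138) of its transcript. In SN the 3997 probe read 1.64, 1.89 and 1.41 at 0 d, 1.37, 1.40 and 1.36 after 1 d, 1.78, 1.66 and 1.64 after 4 d, 1.90, 1.94 and 1.90 after 7 d and 2.21, 2.07 and 2.03 after 14 d. The highest arrays were those of 14 d. Differences from 0 d were -0.27, 0.05, 0.27 and 0.46 ± 0.10 (adjusted p = 0.00234 at 14 d), and at the 3386 probe -0.003, 0.28, 0.79 ± 0.08 (adjusted p = 6.54e-06) and 0.75 (adjusted p = 1.37e-05), all below 2-fold. From 1 to 14 d the level went up by 0.73 and 0.75 at these probes. In DRG all later arrays lay above 0 d at both probes, by 0.33 to 0.61 at the 3997 probe and 0.43 to 0.70 at the 3386 probe, none called. At 0 d SN was above DRG by 2.50 ± 0.11 (5.66-fold, adjusted p = 1.7e-15) at the 3997 probe and 1.94 ± 0.12 (3.84-fold) at the 3386 probe.

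**Figure D3:**
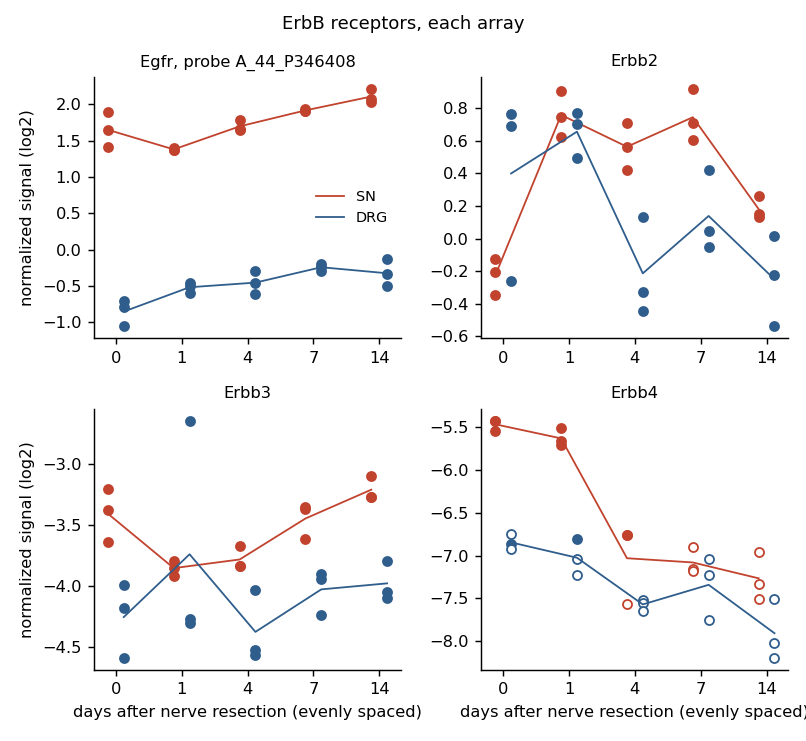
Normalized signal (log2, relative to the 75th percentile of the array) of the receptor genes by day, days evenly spaced, points being arrays (SN red, DRG blue, open where not well above background) and lines joining group means. Erbb4 in SN goes from -5.54 to -5.42 at 0 d to open points at 7 and 14 d, Erbb2 in SN lies above 0 d on all later days, and 1 DRG array of Erbb3 at 1 d stands apart at -2.65.

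Counted over probes, 5 of the 13 tested in SN were called at 1 d, where 22.1% of all tested probes were, and 6 each at 4 d (22.7% of all), 7 d (24.9%) and 14 d (19.8%). These were both Nrg1 probes, the 1470 probe of Nrg2, Areg and Btc, all higher, and from 4 d on Erbb4, lower. In DRG 1 of 12 was called at 1 d (7.6% of all), 0 at 4 d (6.54%), 0 at 7 d (6.91%) and 1 at 14 d (13.5%), and Areg was the probe both times. At 4 and 7 d in DRG the limma fit gave 9 and 8 member probes at an unadjusted p under 0.05 and 7 each at an adjusted p under 0.05 with no fold threshold, while the methods' t-test also called 0. Between 14 and 1 d, 4 probes were called in SN (13.5% of all), both of Nrg1, Areg and Erbb4, all lower at 14 d, and 2 in DRG (5.26%), Areg lower and Btc higher. The probes of a gene are not independent of each other.

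**Figure D4:**
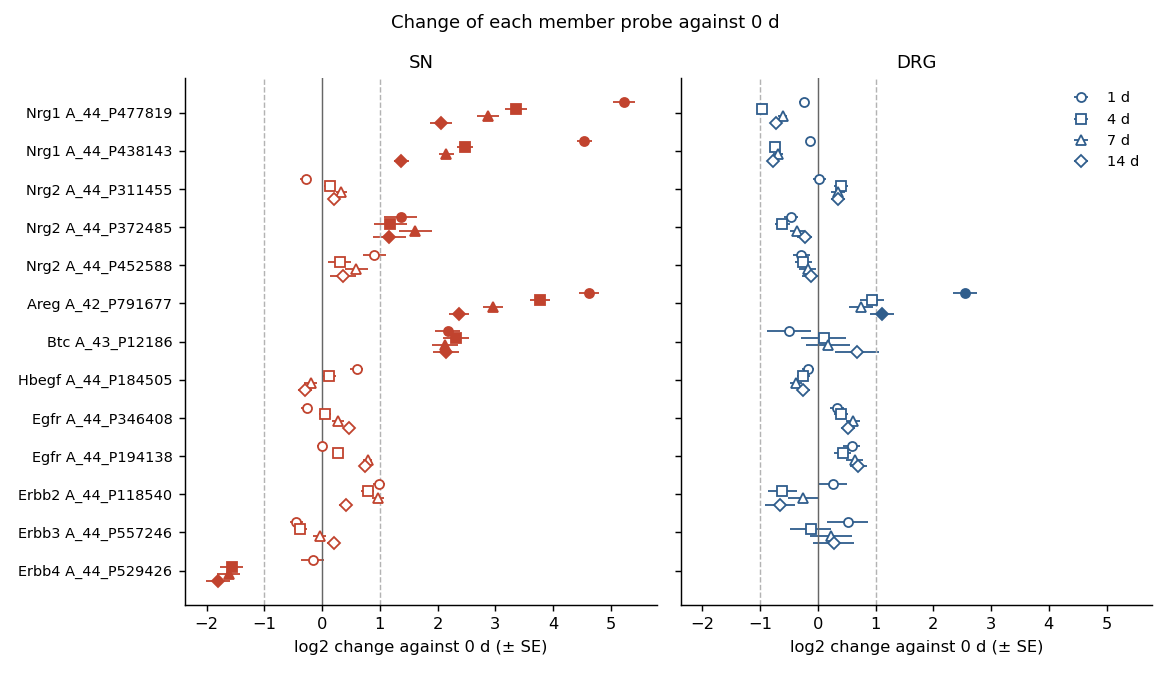
Log2 change from 0 d with its SE for each tested probe in SN and in DRG, with the day given by the shape, filled symbols for called changes and dashed lines at a 2-fold change either way. In SN the Nrg1 probes at 1 d (5.23 and 4.54) and Areg lie farthest right and Erbb4 lies left of the line from 4 d on, while in DRG Areg at 1 d (2.55) lies farthest from 0. Areg in SN is drawn at the fitted change, for which its 0 d arrays give only a bound.

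Whether a change differed between SN and DRG was tested as an interaction over all 30 arrays. At 1 d 9 of the 12 probes tested in both tissues differed (35.6% of all probes), at 4 d 6 (45.3%) and at 14 d 6 (32.2%). The difference (SN change minus DRG change) was 5.47 ± 0.21 for Nrg1 at 1 d (2034 probe, adjusted p = 4.03e-14), 4.32 at 4 d and 2.77 at 14 d. With the slide as a fixed block, a setting chosen after seeing the data, it was 5.39, 4.41 and 2.56. For Areg, which was called up in both tissues at 1 d, it was 2.07 ± 0.28 at 1 d (adjusted p = 6.28e-06), 2.84 at 4 d and 1.27 at 14 d. The 1 d value was -0.66 with normexp and the 75th percentile and -0.14 with normexp and quantile, and the 14 d value -0.01 with the former. The cause was not tested. For Erbb2 it was 0.73 ± 0.29 at 1 d (adjusted p = 0.0521), 1.40 at 4 d and 1.06 at 14 d. With the slide as a fixed block it was 0.02, 0.75 and 0.37, with no adjusted p under 0.05. The slide as a random block kept the Erbb2 calls at 4 and 14 d. Without DRG 0 d replicate 1 the Erbb2 difference at 1 d was 1.06 (adjusted p = 0.00102). Erbb3 gave -0.96 ± 0.39 at 1 d (adjusted p = 0.0577), which was -0.41 without DRG 1 d replicate 1 and -1.98 with the slide as a fixed block. Hbegf differed at 1 d, by 0.76 ± 0.16, and Egfr in the other direction, by -0.60 ± 0.15 and -0.59 ± 0.17 at its 2 probes. At 0 d itself, 9 of the 12 probes were called between the tissues (35.4% of all), with Nrg1, Nrg2 (its 912 probe near background in both) and Areg (at least 2.52-fold) lower and Egfr and Hbegf higher in SN. Erbb2 (-0.63 ± 0.20), Erbb3 (0.85 ± 0.27) and Btc (0.33 ± 0.33) were not called.

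**Figure D5:**
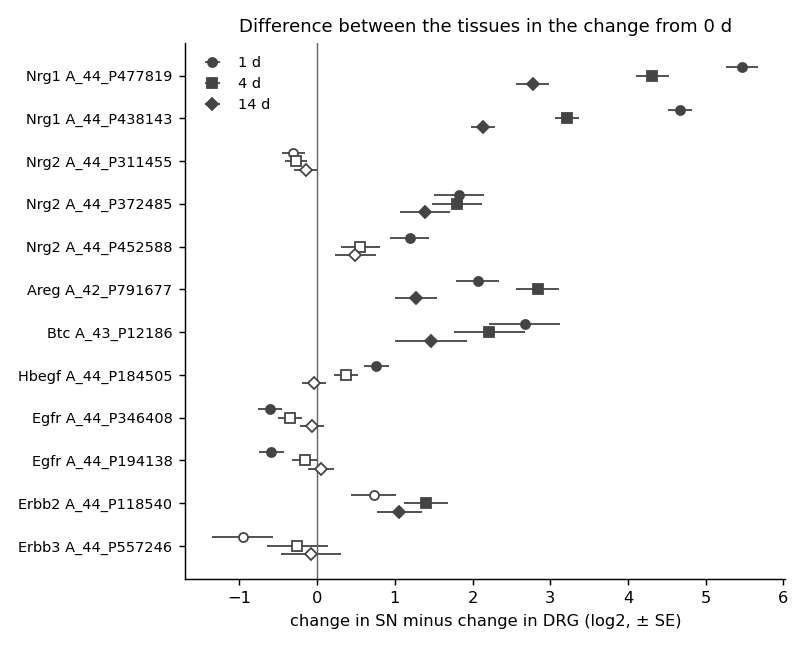
Change from 0 d in SN minus change from 0 d in DRG (log2, with its SE) for the 12 probes tested in both tissues at 1, 4 and 14 d, filled where the adjusted p was under 0.05. The Nrg1 probes lie farthest from 0 on each of these days (5.47 and 4.67 at 1 d, 2.77 and 2.14 at 14 d), and Egfr lies on the other side of 0 at 1 d.

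Other genes of the pathway were taken from lists, 30 of 34 genes being on the array, and are described by counts beside all tested probes, whose median change from 0 d was 0.11 to 0.16 in SN and 0.08 to 0.14 in DRG. The counts below stand beside 22.1%, 22.7%, 24.9% and 19.8% of all probes called in SN at 1, 4, 7 and 14 d and 7.6%, 6.54%, 6.91% and 13.5% in DRG. Of the other ligands, 3 were tested in SN, with 2 called lower at 1 d and on each later day 1 higher and 1 lower (median -1.08 to -0.44). Tgfa, the gene of the EGFR ligand TGF-alpha, fell by 1.26 ± 0.14 at 1 d (adjusted p = 1.63e-05), 1.93 at 4 d, 2.14 at 7 d and 2.27 at 14 d (adjusted p = 2.44e-07), from a mean of 4.39 to 2.12. Egf fell by 1.08 ± 0.19 at 1 d. Epgn, the gene of epigen, was not well above background at 0 d and was at least 1.58-fold higher in SN at 7 d and at least 1.5-fold higher in DRG at 14 d, where it was the 1 of 4 called. In SN at 4 and 14 d Epgn was called, but with 2 of 3 arrays well above background and the bound under 1 no fold is given. The skeletal muscle markers were lower at 4 and 7 d as well and not called at 1 or 14 d, 3, 2 and 3 of the 4 adipocyte markers were called lower at 4, 7 and 14 d, and the part of both was not tested.

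Of the 5 sheddases, proteases of the kind that free these ligands, Adam12 rose in SN by 1.66 ± 0.25 at 1 d (adjusted p = 0.000113), 1.31 at 4 d and 1.04 at 7 d and in DRG by 1.32 at 1 d and 1.31 at 14 d. In DRG at 0 d Adam12 was well above background on only 1 of 3 arrays. Adam10 fell in SN by 1.16 at 4 d and 1.1 at 7 d, and Adam17 rose by 1.30 ± 0.10 at 14 d. Thus 1 of 5 rose on each day in SN and 1 fell at 4 and 7 d (median -0.19 to 0.36). Among 10 negative regulators of the receptors and their signalling, 3 rose on each day in SN and 1 fell at 7 d (median -0.25 to 0.31), and in DRG 1 fell at 7 d. Lrig3 was not well above background in SN at 0 d and was at least 4.40-fold, 5.04-fold, 4.41-fold and 2.50-fold higher at 1, 4, 7 and 14 d. Spred1, a brake on the Ras to MAP kinase route, rose by 1.30 ± 0.08, 1.33, 1.17 and 1.01 on these days, and the phosphatase gene Dusp4 by 1.30, 1.05 and 1.23 at 1, 7 and 14 d. Of the 11 adaptors and kinases, at most 1 rose and 1 fell on a day in SN (median -0.13 to 0.02). Shc1 rose by 1.33 ± 0.13 at 7 d, Mapk3, the gene of ERK1, fell by 1.03 at 7 d and 1.31 at 14 d, and Ptpn11 fell by 1.09 at 4 d. In DRG 1 rose at 1 d. The remaining calls in these lists fall outside the rule for named genes and are named after their values were seen. Grb7 rose by 1.05 at 1 d in SN and in DRG, Dusp6 rose by 1.05 in SN at 4 d, Errfi1 fell by 1.13 in SN at 7 d, and Spry4 fell by 1.01 in DRG at 7 d. The medians of the 4 lists in DRG lay between -0.23 and 0.17.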

How the data were processed

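RNA of 15 SN and 15 DRG samples, 3 for each tissue and day, was hybridised by the authors to single-colour rat arrays (45018 spots). The intensity values were deposited by the authors as read with Feature Extraction 10.5.1.1, background-subtracted and detrended within an array but not normalized between arrays. The log2 values of the authors' deposited matrix matched 41012 probes, have nearly the same distribution on all arrays and were used as an alternative.

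Here, spots marked as outliers were left out, the log2 processed signals of a probe's spots were averaged and the 75th percentile of the array was subtracted. Missing values (672 over all probes, among them SN 14 d replicate 2 at the 912 probe of Nrg2) were left out of the fits. Tests used limma 3.58.1 (R 4.3.3, statmod 1.5.0 and the data.table package, 1.17.8) on probes that were well above background on each of the 3 arrays of some day (35163 in SN, 34977 in DRG, 33806 in both), on the 15 arrays of a tissue or all 30 for the interaction and for SN against DRG at 0 d, with Benjamini-Hochberg adjustment. Script tests on simulated data were made first. The number of arrays, 3 per group, limits the precision.

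All member probes are reported, with the brightest as a gene's main probe. The rule was to name at most 3 genes from each pathway list, those called against 0 d with the largest change. Grb7, Dusp6, Errfi1 and Spry4 were named outside this rule, after their values were seen. Nrg4, Cbl, Pik3ca and Erbb2ip were not found by name. Members and lists were chosen with earlier results of these data known. A fold of at least N compares the brighter group with the lowest signal well above background, or the dim probe's own if higher. Alternatives were other backgrounds, scalings, filters and fold thresholds, the methods' t-test, an intensity trend, slide, scan day and replicate number as blocks, and leaving out arrays. Slide as a fixed block and leaving out the 2 DRG arrays on SN slides were chosen after seeing the data.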

Additional observations from a re-analysis of the deposited data

Results flagged for a closer look

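The changes that differed between SN and DRG in the interaction test (adjusted p under 0.05 in limma) are given as SN change minus DRG change. For Nrg1 the difference was 5.47 at 1 d, 4.32 at 4 d and 2.77 at 14 d at the 2034 probe, and 4.67, 3.22 and 2.14 at the 865 probe. For Areg it was 2.07, 2.84 and 1.27 on these days, with the SN arrays of 0 d not well above background. For Btc it was 2.67, 2.22 and 1.47, with most 0 d arrays not well above background. For the 1470 probe of Nrg2 it was 1.82, 1.80 and 1.39, with SN 0 d replicate 2 not well above background. The SN calls of that probe at 1 and 4 d were lost with normexp. The 912 probe of Nrg2 gave 1.19 at 1 d, near background. Erbb2 gave 1.40 at 4 d and 1.06 at 14 d, and the DRG 0 d arrays behind it disagreed. Hbegf gave 0.76 at 1 d. Egfr gave -0.60 at the 3997 probe and -0.59 at the 3386 probe at 1 d, where the SN change was the lower.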

How the results depend on the processing

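Of 61 called results, 53 were kept after quantile normalization, 52 in the authors' values, 35 with normexp and quantile, 25 with normexp and the 75th percentile, 61 with the percentile over detected probes and 60 without the filter. Scaling moved the median change of all probes against 0 d by -0.19 to -0.11 under quantile normalization and by -0.19 to 0.27 with normexp. The Nrg1 change in SN at 1 d (2034 probe) ranged from 3.83 to 5.29.

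Counts of called member probes against 0 d moved as follows. With normexp and the 75th percentile they were 2, 1, 1 and 1 in SN at 1, 4, 7 and 14 d, 1 in DRG at 4 d, 2 in SN and 0 in DRG for 14 against 1 d, and 3, 3 and 3 for the interaction. With normexp and quantile they were 3, 2, 1 and 1 in SN, 1 and 0 in DRG at 4 and 14 d, and 2 and 1 for 14 against 1 d. With a stricter filter they were 2 on each day in SN, 0 in DRG at 1 and 14 d, 1 in DRG for 14 against 1 d and 3 for the interaction at 14 d. With no fold threshold they were 11 in SN at 1 and 7 d, 3, 7, 7 and 6 in DRG, and 10 and 5 for 14 against 1 d. In DRG, quantile normalization gave 2 at 1 d, 0 at 14 d and 1 for 14 against 1 d, the authors' values and the adjusted t-test of the methods 0 at 14 d and 1 for 14 against 1 d, and no filter 1 at 4 d, 2 at 14 d and 1 for 14 against 1 d. Scan day as a block, and leaving out the DRG arrays on SN slides, each gave 1 for 14 against 1 d.

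Leaving out 1 array gave 5 to 6, 5 to 6, 6 to 7 and 5 to 6 in SN, 1, 0 to 2, 0 and 0 to 2 in DRG, 4 and 1 to 2 for 14 against 1 d, 9 to 11, 6 to 8 and 5 to 7 for the interaction and 8 to 9 for SN against DRG at 0 d.

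Directions turned with normexp and the 75th percentile for Erbb4 in SN at 14 d (0.38) and for 14 against 1 d (0.73), Areg in SN for 14 against 1 d (0.032) and in the interaction at 1 d (-0.66) and 14 d (-0.011), and the 912 probe of Nrg2 in the interaction at 1 d (-0.33) and between tissues at 0 d (0.15). With normexp and quantile it turned for Areg in the interaction at 1 d (-0.14). Except for Areg in SN for 14 against 1 d, where all arrays of both days were well above background, at least 1 group compared had arrays that were not. The cause was not tested.

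The replicate numbers did not pair the samples: over 24 pairs the deviations correlated at -0.30 to 0.19, with 3 over 0.1. Between the SN and DRG arrays of the same day and number they correlated at -0.19 to 0.25 over 15 pairs, with 4 over 0.1. With the replicate block the calls were 5, 6, 6 and 6 in SN and 1, 0, 0 and 1 in DRG, as without it, 9, 6 and 6 for the interaction, and 61 of 61 calls were kept.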
